A study of Mus musculus with 21 samples.

Results

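AH129-5 is an androgenetic haploid embryonic stem (ahES) cell line of the mouse, and its RNA was compared here with that of 2 further ahES lines, AH129-N1 and AH129-NC1. The comparison used 9 of the 21 arrays of the series, 3 of AH129-5 and 6 of the other haploid lines, chosen by the line named in each sample's title. ES cells of this kind hold a single chromosome set that comes from a sperm. By their labels all 3 lines had the 129 Sv genetic background, were grown in N2B27 medium with 2i (a pair of kinase inhibitors) and LIF, and were sorted by FACS for haploid cells in G0/G1. No allele, agent or passage number that would set AH129-5 apart is given in the labels. Each name stands for 1 derived line, so a difference from AH129-5 is a difference between individual lines. The diploid ES lines CS1-1 and R1 (3 arrays each, 129 Sv, same medium, no sort stated) are shown beside them, and MEF of CD1 background and round sperm served for marker levels.

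Expression is given as log2 of the deposited MAS5 signal plus a small offset, so that 1 unit is a 2-fold step, with 1 probe set per gene. Differences are AH129-5 minus the named line, with their standard error (SE) from a limma fit over the 15 ES arrays, and adjusted p-values are limma's with the Benjamini-Hochberg procedure over 12418 tested genes. To pass, a gene needed an adjusted p below 0.05 and a difference of 2-fold or more. The term "against both lines" means that it passed in the same direction against AH129-N1 and against AH129-NC1, and the p then given is the larger of the 2. Both differences share the AH129-5 arrays. Group means carry standard deviations (SD) over 3 arrays. The 3 arrays per line are labelled biological replicates, but nothing says that they came from separate derivations, and p-values measure the spread between these arrays.

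The arrays carried the labelled cell type. Pou5f1 (Oct4), the central pluripotency factor, stood at 13.67 ± 0.11 in AH129-5, 13.58 ± 0.06 in AH129-N1 and 13.68 ± 0.07 in AH129-NC1, and Nanog at 13.63 ± 0.11 in AH129-5, 13.86 ± 0.07 in AH129-N1 and 13.71 ± 0.07 in AH129-NC1. Across genes, arrays of AH129-5 had a mean Pearson correlation of 0.987 with each other, 0.967 with AH129-N1 and 0.966 with AH129-NC1, while AH129-N1 and AH129-NC1 had 0.974 with each other. These correlations describe the arrays only, since genes are not independent replicates. The median difference over all tested genes was 0.03 against AH129-N1 and 0.06 against AH129-NC1. Marker genes of fibroblasts, on which such cells are often grown, had a summed signal of 77017 to 82628 units in AH129-5, 66730 to 73626 in AH129-N1, 71886 to 72944 in AH129-NC1 and 603758 to 638345 in MEF.

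AH129-5 differed from both other haploid lines in 237 genes, 131 of them higher (1.05% of those tested) and 106 lower (0.854%). In the comparison with AH129-N1 taken by itself, 477 genes were higher (3.84%) and 180 lower (1.45%), and in that with AH129-NC1 398 were higher (3.21%) and 265 lower (2.13%). Directly compared, AH129-N1 was higher than AH129-NC1 in 120 genes (0.966%) and lower in 263 (2.12%). By the log2 differences as measured, 19 genes were lower and 9 higher by at least 4-fold against both lines. These counts include genes near background, some of which are given below with lower bounds under 4-fold. Of the genes that passed against both lines, 55.3% were higher. That share was 42.9% after quantile normalization (100 higher and 133 lower) and 47.2% with median-centred arrays. It was 47.4% with an offset of 50 and 49.7% with a filter at the 60th percentile. In the other alternatives it ran from 50.4% to 57.7%. The split of rises and falls thus differed with the scaling of the arrays and with the treatment of low signals. In 129 of the 131 rises the 3 AH129-5 arrays lay above all 6 other haploid arrays, as did 15.5% of all tested genes. In 105 of the 106 falls they lay below all 6, as did 11.3% of all tested genes. These genes were selected for differences on the same arrays, so the lack of overlap describes them and is no separate evidence. Set also against the 6 diploid arrays, AH129-5 was the extreme line of the 5 in 99 of the 131 rises and 70 of the 106 falls (7.81% and 5.72% of all tested genes).

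**Figure D1:**
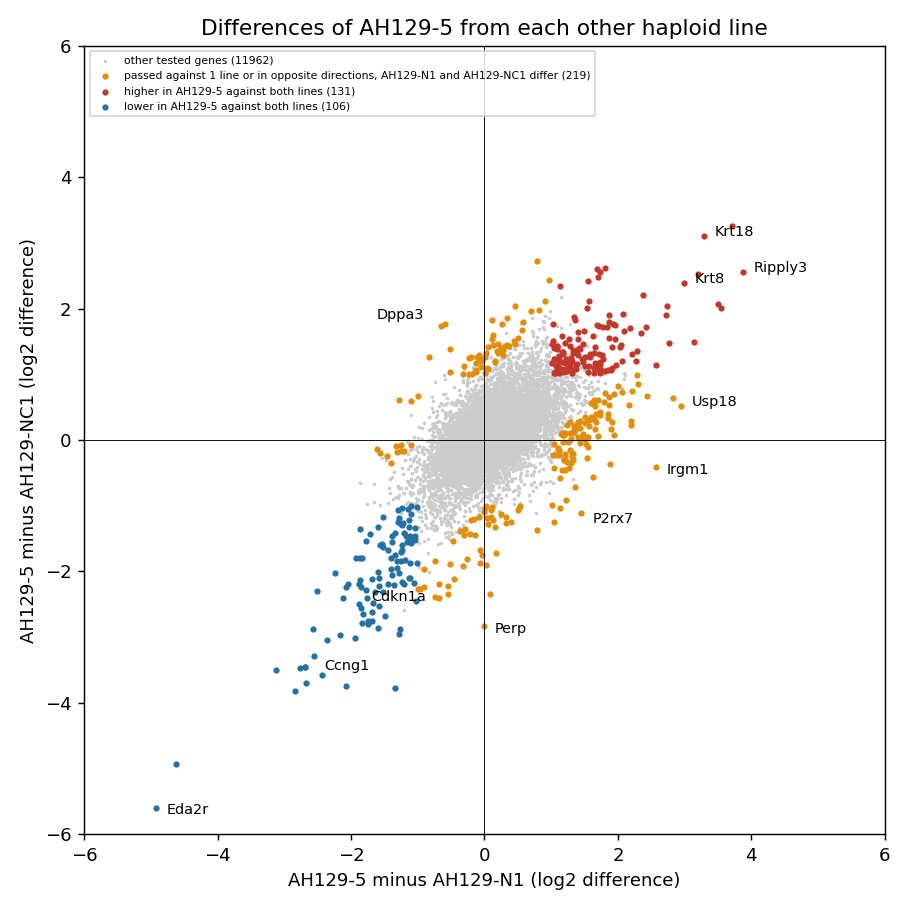
Each point is a tested gene, with its log2 difference AH129-5 minus AH129-N1 on the horizontal axis and AH129-5 minus AH129-NC1 on the vertical axis. The 131 rises lie at the upper right, the 106 falls at the lower left with Eda2r farthest out, and the 219 genes in orange differed between AH129-N1 and AH129-NC1 and did not move the same way.

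The p53 pathway gave the clearest group. The transcription factor p53 (gene Trp53) is stabilised when DNA is damaged or cells are stressed, and it switches on genes that halt the cell cycle, trigger apoptosis and limit p53 itself. It binds a site of 2 half-sites of 10 bases each. Mouse ES cells are known to hold much p53 protein and to transcribe several of its targets in culture. Haploid ES cells are also known to turn diploid in culture, and loss of p53 has been reported to slow this.

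Of 30 genes on the list of p53 and its targets, 27 had a probe set of their own and 26 were tested. Fas was below the filter on low values, and Trp53, Bax and Gdf15 were not used here because no probe set carried their symbol alone. In AH129-5, 13 of the 26 were lower against both lines (50%, against 0.854% of all tested genes) and 0 were higher (1.05% of all tested genes). Another 6 were lower against AH129-NC1 only: Mdm2, Sesn2, Ei24, Tnfrsf10b, Ckap2 and Perp. In sum, 19 were lower against at least 1 line (2.73% of all tested genes). Both differences were below 0 in 21 of the 26, compared with 3751 of 12418 genes in all. The list's median difference was -1.01 against AH129-N1 and -1.62 against AH129-NC1. No test was run on the list as a whole.

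Promoter windows from RefSeq (GRCm38.p6, 250 bases before to 50 after a transcription start) were at hand for 11 of the 13 genes. They were searched on both strands for 2 half-sites side by side with the fixed C and G of the p53 consensus kept and at most 2 mismatches in 20 bases. Such a match lay in the windows of 3 of the 11 (27.3%), 4 of all 18 tested members of the list with a window (22.2%), 7 of 87 genes lower against both lines (8.05%), 0 of 103 higher and 47 of all 10038 tested genes with a window (0.468%). The fourth member with a match was Ckap2, which was lower against AH129-NC1 only. These groups overlap, since the 3 genes are also among the 4 and the 7. The list was made of p53 targets, so its share of matches is no separate evidence. The 3 windows are printed 5′ to 3′ on the strand of the gene with the match in capitals, because they show what lies ahead of these genes. Ccng1 is at chr11:40755237-40755536 on the minus strand, with the match starting 195 bases before the start. Cdkn1a is at chr17:29090729-29091028 on the plus strand, at an upstream start, with the match 51 bases before it. Gtse1 is at chr15:85859696-85859995 on the plus strand, with the match starting 1 base before one of its starts. Each match has 1 mismatch.
Ccng1: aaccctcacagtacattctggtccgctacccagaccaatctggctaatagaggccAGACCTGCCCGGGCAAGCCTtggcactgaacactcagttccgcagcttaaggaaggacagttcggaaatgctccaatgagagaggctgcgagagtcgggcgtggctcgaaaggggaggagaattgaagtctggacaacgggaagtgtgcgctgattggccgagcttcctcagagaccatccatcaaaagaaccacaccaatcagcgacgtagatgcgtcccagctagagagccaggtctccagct
Cdkn1a: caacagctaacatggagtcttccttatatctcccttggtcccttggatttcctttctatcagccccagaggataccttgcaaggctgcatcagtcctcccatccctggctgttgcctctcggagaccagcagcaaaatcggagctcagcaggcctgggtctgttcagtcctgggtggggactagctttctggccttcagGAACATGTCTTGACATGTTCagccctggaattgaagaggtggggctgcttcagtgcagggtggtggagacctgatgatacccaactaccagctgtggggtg
Gtse1: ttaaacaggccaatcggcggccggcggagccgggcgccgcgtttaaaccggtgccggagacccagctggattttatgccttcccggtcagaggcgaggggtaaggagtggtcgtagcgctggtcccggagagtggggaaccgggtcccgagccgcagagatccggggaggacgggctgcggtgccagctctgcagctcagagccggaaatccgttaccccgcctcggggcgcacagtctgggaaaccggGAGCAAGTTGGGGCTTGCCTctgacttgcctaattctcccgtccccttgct
A match describes the letters only and does not show that p53 binds there. Single half-sites, which are less specific, lay in the windows of 6 of the 11 genes (54.5%), of 10 of all 18 tested members (55.6%) and of 817 of the 10038 genes (8.14%). Half-sites were thus no more frequent in the members that were lower against both lines than in the list as a whole.

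The genes with printed windows span a wide range of size. Ccng1 encodes cyclin G1, which feeds back on p53 through Mdm2. It had values of 10.37, 10.48 and 10.49 in AH129-5, against 12.98, 13.10 and 12.94 in AH129-N1 and 13.76, 13.83 and 13.61 in AH129-NC1. The arrays of AH129-5 lay far below the rest, and the differences were -2.56 ± 0.06 against AH129-N1 and -3.29 ± 0.06 against AH129-NC1 (limma adjusted p = 4.61e-17, 5.89-fold against AH129-N1 and 9.76-fold against AH129-NC1). Cdkn1a encodes p21, the inhibitor of cyclin-dependent kinases that holds cells in G1. Its values were 10.67, 10.60 and 10.50 in AH129-5, against 12.49, 12.66 and 12.18 in AH129-N1 and 13.26, 13.04 and 13.14 in AH129-NC1, again with no overlap. It was lower in AH129-5 by 3.62-fold against AH129-N1 and 5.88-fold against AH129-NC1 (adjusted p = 1.52e-10). Gtse1 encodes a microtubule-associated protein that can restrain p53. It measured 9.27, 9.12 and 9.15 in AH129-5, against 10.18, 10.32 and 10.15 in AH129-N1 and 10.73, 10.56 and 10.83 in AH129-NC1, the smallest of the 13 falls (-1.04 ± 0.11 against AH129-N1 and -1.53 ± 0.11 against AH129-NC1, adjusted p = 2.76e-07). It fell just short of 2-fold without AH129-N1 replicate 2 (log2 difference -0.98) or with an offset of 50 (-0.99).

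The largest fall of all genes was that of Eda2r, an ectodysplasin receptor of the tumour necrosis factor family encoded on the X chromosome and induced by p53. Its values were 6.30, 6.20 and 6.50 in AH129-5, against 11.26, 11.37 and 11.13 in AH129-N1 and 11.996, 11.80 and 12.01 in AH129-NC1. In AH129-5 it lay below the other lines by 30.3-fold against AH129-N1 and 48.6-fold against AH129-NC1 (differences -4.92 ± 0.09 against AH129-N1 and -5.60 ± 0.09 against AH129-NC1, adjusted p = 6.24e-19). The diploid lines also had far more than AH129-5, with 9.51 ± 0.07 in CS1-1 and 11.10 ± 0.06 in R1. Eda2r was represented by a single probe set, whereas 2 further probe sets of Ccng1 and 1 of Cdkn1a showed falls of like size. The arrays measure a pool of RNA from each culture, in which fewer cells expressing a gene and less of its RNA per cell cannot be told apart.

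Other members act in growth arrest. Btg2, an antiproliferative gene that p53 induces, measured 8.73, 8.53 and 8.60 in AH129-5, against 10.42, 10.45 and 10.47 in AH129-N1 and 11.25, 11.38 and 11.17 in AH129-NC1 (-1.83 ± 0.08 against AH129-N1 and -2.65 ± 0.08 against AH129-NC1, adjusted p = 6.84e-13). Phlda3, which blocks Akt signalling at the membrane, had 9.35, 9.19 and 9.16 in AH129-5, against 11.15, 11.11 and 11.09 in AH129-N1 and 11.63, 11.77 and 11.81 in AH129-NC1 (-1.88 ± 0.06 against AH129-N1 and -2.50 ± 0.06 against AH129-NC1, adjusted p = 2.03e-14). In both genes every AH129-5 array lay below every other ES array. Zmat3 (Wig1), an RNA-binding zinc finger protein, stood at 9.14, 8.94 and 9.05 in AH129-5, against 10.98, 10.83 and 10.86 in AH129-N1 and 11.24, 11.31 and 11.26 in AH129-NC1. Its 12 other ES arrays lay close together, with 11.12 ± 0.06 in CS1-1 and 10.95 ± 0.05 in R1, and AH129-5 was 3.61-fold against AH129-N1 and 4.69-fold against AH129-NC1 lower (adjusted p = 2.23e-14). Ddit4l, an inhibitor of mTOR signalling, had 5.92, 5.99 and 6.10 in AH129-5, against 8.56, 8.31 and 8.43 in AH129-N1 and 9.58, 9.39 and 9.74 in AH129-NC1, a fall of 5.39-fold against AH129-N1 and 11.9-fold against AH129-NC1 (adjusted p = 6.23e-11). For this gene CS1-1, at 6.59 ± 0.17, was nearest to AH129-5.

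The 5 further members that were lower against both lines were chosen for description after their values were seen. Bbc3 (Puma), a BH3-only protein that starts apoptosis, had 6.87, 6.53 and 6.76 in AH129-5, against 8.37, 8.32 and 8.49 in AH129-N1 and 9.14, 9.12 and 9.31 in AH129-NC1 (-1.68 ± 0.13 against AH129-N1 and -2.47 ± 0.13 against AH129-NC1, adjusted p = 3.02e-09). Aen, a nuclease of apoptotic cells, had 9.57, 9.66 and 9.65 in AH129-5, against 11.33, 11.31 and 11.30 in AH129-N1 and 11.82, 11.70 and 11.68 in AH129-NC1 (-1.69 ± 0.06 against AH129-N1 and -2.11 ± 0.06 against AH129-NC1, adjusted p = 2.78e-14). These are both genes of cell death, and neither overlapped between AH129-5 and any other ES line. Trp53inp1, a nuclear partner of p53, had 11.81, 11.63 and 11.89 in AH129-5, against 13.07, 13.09 and 12.99 in AH129-N1 and 13.72, 13.72 and 13.97 in AH129-NC1 (-1.28 ± 0.07 against AH129-N1 and -2.03 ± 0.07 against AH129-NC1, adjusted p = 5.68e-11). Plk2, a polo-like kinase, averaged 9.79 ± 0.13 in AH129-5, 11.002 ± 0.08 in AH129-N1 and 11.98 ± 0.06 in AH129-NC1 (adjusted p = 8.61e-11). Polk, a DNA polymerase that copies past lesions, averaged 8.11 ± 0.11 in AH129-5, 9.56 ± 0.04 in AH129-N1 and 9.78 ± 0.04 in AH129-NC1 (adjusted p = 4.04e-11). All 13 genes were lower in AH129-5 than on each of the 12 other ES arrays.

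Not every target followed, and those given here other than Perp were chosen after their values were seen. Mdm2, the ligase that degrades p53, had 10.41, 10.71 and 10.61 in AH129-5, against 11.24, 11.38 and 11.25 in AH129-N1 and 11.81, 11.79 and 12.13 in AH129-NC1. Its difference of -0.71 ± 0.11 from AH129-N1 stayed under 2-fold (adjusted p = 5.15e-05), while that of -1.34 ± 0.11 from AH129-NC1 passed (adjusted p = 4.42e-08). Pmaip1 (Noxa), another BH3-only gene, went the other way against AH129-N1: its values were 10.34, 10.40 and 10.46 in AH129-5, against 9.63, 9.26 and 9.09 in AH129-N1 and 10.70, 10.64 and 10.55 in AH129-NC1, higher by 1.08 ± 0.10 against AH129-N1 (adjusted p = 1.13e-07), with a difference of -0.23 ± 0.10 from AH129-NC1 that did not pass. Perp, an epithelial apoptosis gene, measured 7.01, 6.90 and 7.35 in AH129-5, against 7.32, 6.98 and 6.996 in AH129-N1 and 9.89, 10.06 and 9.81 in AH129-NC1. AH129-5 and AH129-N1 overlapped there, and of the haploid lines only AH129-NC1 stood apart (difference -2.83 ± 0.13, adjusted p = 1.75e-12). Of the genes for nucleotide supply and DNA repair on the list, Rrm2b had differences of -0.51 against AH129-N1 and 0.04 against AH129-NC1, Xpc -0.32 against AH129-N1 and 0.42 against AH129-NC1 and Ddb2 -0.04 against AH129-N1 and 0.24 against AH129-NC1, and no one of them passed.

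The mean log2 value of the 26 tested members, taken per array, was 8.88 to 8.95 in AH129-5, 10.02 to 10.13 in AH129-N1 and 10.60 to 10.64 in AH129-NC1. It was 9.79 to 9.83 in CS1-1 and 10.30 to 10.37 in R1. AH129-5 was thus the lowest of the 5 ES lines on this mean, and CS1-1 the next. AH129-N1 and AH129-NC1 also differed from each other, with a median over the list of -0.59 (AH129-N1 minus AH129-NC1). In 17 of the 26 members AH129-5 lay below all 12 other ES arrays, where 5.72% of all tested genes did. Under the alternatives tried, leaving aside the one without a minimum fold, 11 to 14 members were lower against both lines and 0 were higher. The fewest, 11, came from averaging all probe sets of a gene.

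**Figure D2:**
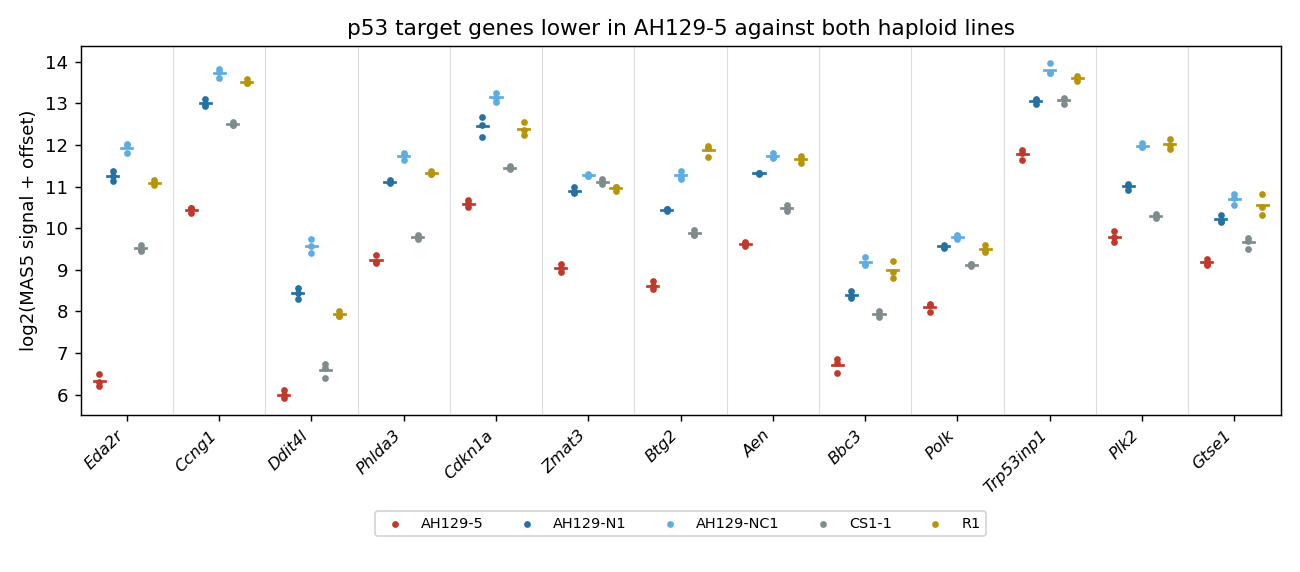
The log2 value of each array (points) and the mean of each line (bars) are plotted for the 13 p53 target genes that were lower in AH129-5 against both haploid lines, in order of the size of the fall. The AH129-5 arrays, in red, are the lowest points of every gene, from 4.92 below AH129-N1 in Eda2r to 1.04 below it in Gtse1.

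Cell cycle genes as a whole showed few calls, as did all tested genes (1.05% higher and 0.854% lower against both lines). Of 43 tested genes of S phase and DNA replication, 0 passed against both lines in either direction, and of 43 genes of G2 and mitosis 1 was lower, Gtse1, already described. Both differences were below 0 in 20 of the S phase genes and above 0 in 9. In G2 and mitosis these were 21 and 8, and among all 12418 tested genes 3751 and 5055. AH129-5 lay below all 12 other ES arrays in 5 of the S phase genes and 11 of the G2 and mitosis genes (5.72% of all tested genes). The medians against AH129-N1 and AH129-NC1 were -0.16 and -0.02 for S phase, and -0.21 and -0.01 for G2 and mitosis. Of 21 G1 cyclins and Cdk inhibitors, 3 were lower against both lines (14.3%, against 0.854% of all tested genes), Cdkn1a, Rb1 and Rbl2, and 0 were higher (1.05% of all tested genes). Rb1, the retinoblastoma protein that holds back E2F, had 7.09, 7.08 and 7.05 in AH129-5, against 8.02, 8.21 and 8.04 in AH129-N1 and 9.01, 8.80 and 9.03 in AH129-NC1 (adjusted p = 2.07e-07). Rbl2 (p130), its relative in quiescent cells, had 7.18, 7.04 and 7.15 in AH129-5, against 8.09, 8.13 and 8.17 in AH129-N1 and 8.07, 8.21 and 8.14 in AH129-NC1 (adjusted p = 2.7e-06). Both falls were barely over 2-fold against AH129-N1 (2.03-fold and 2.01-fold). Each slipped under 2-fold without single arrays: Rb1 without AH129-N1 replicate 2, and Rbl2 without AH129-5 replicate 2, AH129-N1 replicate 3 or AH129-NC1 replicate 2. They also did so with an offset of 50 and when probe sets were averaged, each of which left 1 of the 21 genes.

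Further genes among the 12 largest falls act in varied pathways. Psrc1, a microtubule protein that p53 induces in mouse cells and that is not on the list, had 8.81, 8.84 and 8.85 in AH129-5, against 11.52, 11.64 and 11.64 in AH129-N1 and 12.31, 12.35 and 12.26 in AH129-NC1. The fall was 6.78-fold against AH129-N1 and 11.1-fold against AH129-NC1 (adjusted p = 1.08e-17), and CS1-1 and R1 stood at 11.58 ± 0.11 and 12.28 ± 0.03. Slc19a2, a thiamine transporter also known as a p53 target, had 9.52, 9.16 and 9.22 in AH129-5, against 11.65, 11.72 and 11.63 in AH129-N1 and 12.27, 12.41 and 12.34 in AH129-NC1 (-2.37 ± 0.08 against AH129-N1 and -3.04 ± 0.08 against AH129-NC1, adjusted p = 6.53e-15). Inpp5d (Ship1), a phosphatase of inositol lipids, had 8.38, 8.32 and 8.08 in AH129-5, against 10.81, 10.85 and 10.82 in AH129-N1 and 11.17, 11.15 and 11.07 in AH129-NC1 (-2.56 ± 0.07 against AH129-N1 and -2.87 ± 0.07 against AH129-NC1, adjusted p = 7.51e-16). Rtkn averaged 5.78 ± 0.37 in AH129-5, 8.45 ± 0.26 in AH129-N1 and 9.48 ± 0.45 in AH129-NC1 (adjusted p = 3.96e-09). All 4 were lower in AH129-5 than in every other ES line.

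Others were near background in AH129-5. Background here means a mean at or below the 40th percentile of the arrays (5.61 in AH129-5, 5.46 in AH129-N1 and 5.46 in AH129-NC1), and folds to it are lower bounds. Mgmt, which removes alkyl groups from guanine in DNA, had 3.73, 4.14 and 3.83 in AH129-5, against 6.73, 6.42 and 6.62 in AH129-N1 and 6.89, 7.48 and 7.71 in AH129-NC1. It was lower by at least 1.98-fold against AH129-N1 and at least 3.37-fold against AH129-NC1 (adjusted p = 5.55e-09), and the diploid lines had the most, 8.14 ± 0.15 in CS1-1 and 8.37 ± 0.11 in R1. Ldhal6b, a lactate dehydrogenase of the male germline, had 4.43, 3.80 and 4.01 in AH129-5, against 7.30, 6.31 and 6.71 in AH129-N1 and 7.93, 7.51 and 7.16 in AH129-NC1 (at least 2.24-fold against AH129-N1 and at least 3.8-fold against AH129-NC1, adjusted p = 5.75e-07). Fcgbp, a mucin-like secreted protein, averaged 5.29 ± 0.63 in AH129-5, 8.14 ± 0.26 in AH129-N1 and 9.12 ± 0.27 in AH129-NC1, and CS1-1 was as low as AH129-5 with 4.78 ± 0.14. The unnamed loci D630023F18Rik (at least 7.19-fold against AH129-N1 and at least 9.35-fold against AH129-NC1) and Gm6958 (24.8-fold against AH129-N1 and 30.5-fold against AH129-NC1) completed the 12. In all, 24 of the 106 falls ended near background in AH129-5.

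The largest rises included the simple keratins Krt18 and Krt8. Krt18 and Krt8 pair into the filaments of the first epithelium of the embryo, the trophectoderm. Krt18 had 10.87, 10.91 and 10.81 in AH129-5, against 7.77, 7.58 and 7.37 in AH129-N1 and 7.89, 7.70 and 7.71 in AH129-NC1, and Krt8 had 11.20, 11.17 and 11.07 in AH129-5, against 8.14, 8.29 and 8.03 in AH129-N1 and 8.64, 8.67 and 8.97 in AH129-NC1. The AH129-5 arrays were close to each other and well clear of all 12 other ES arrays. The rises were 9.81-fold against AH129-N1 and 8.57-fold against AH129-NC1 for Krt18 (adjusted p = 9.39e-14) and 7.95-fold against AH129-N1 and 5.23-fold against AH129-NC1 for Krt8 (adjusted p = 1.76e-13). The other 2 probe sets of Krt8 gave differences of 2.63 and 3.31 against AH129-N1. R1 had the next most Krt8, at 10.18 ± 0.10.

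These keratins belong to a list of trophoblast genes, of which 19 were tested. In it, 4 were higher against both lines (21.1%, against 1.05% of all tested genes), 0 were lower and 15 did not pass against both. Gata2, a transcription factor of trophoblast and of blood, had 10.95, 10.64 and 10.41 in AH129-5, against 8.59, 8.70 and 8.50 in AH129-N1 and 8.70, 8.73 and 8.83 in AH129-NC1 (2.07 ± 0.13 against AH129-N1 and 1.91 ± 0.13 against AH129-NC1, adjusted p = 1.01e-09). Krt19, another simple keratin, had 7.59, 8.13 and 7.998 in AH129-5, against 6.05, 6.73 and 6.80 in AH129-N1 and 6.96, 6.78 and 6.72 in AH129-NC1 (adjusted p = 0.000343). The smaller of its differences (1.08 ± 0.21 against AH129-NC1) fell under 2-fold without AH129-5 replicate 2, after quantile normalization and with an offset of 50, and CS1-1 had more (8.22 ± 0.01). Krt7, a further simple keratin, averaged 6.29 ± 0.40 in AH129-5, 5.89 ± 0.18 in AH129-N1 and 5.76 ± 0.22 in AH129-NC1, and its differences of 0.40 ± 0.24 against AH129-N1 and 0.53 ± 0.24 against AH129-NC1 did not pass (adjusted p = 0.192). Hand1, Plac1 and Esx1 were higher against AH129-NC1 only, which makes 7 of 19 higher against at least 1 line (5.99% of all tested genes). Cdx2, the factor that founds the trophectoderm, averaged 10.21 ± 0.11 in AH129-5, 9.31 ± 0.27 in AH129-N1 and 9.69 ± 0.13 in AH129-NC1, with differences under 2-fold of 0.90 ± 0.16 against AH129-N1 and 0.51 ± 0.16 against AH129-NC1 (adjusted p = 0.0134), and both diploid lines were far lower at 5.80 ± 0.26 in CS1-1 and 6.45 ± 0.24 in R1. The list's median was 0.59 against AH129-N1 and 0.58 against AH129-NC1, and 3 to 5 of its genes were higher under the alternatives tried, leaving aside the one without a minimum fold.

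The 12 largest rises held genes of many kinds. Gpnmb, a glycoprotein of melanosomes and lysosomes, had 12.36, 12.32 and 12.27 in AH129-5, against 8.93, 8.70 and 8.67 in AH129-N1 and 10.20, 10.43 and 10.30 in AH129-NC1 (3.55 ± 0.10 against AH129-N1 and 2.01 ± 0.10 against AH129-NC1, adjusted p = 6.26e-12). AH129-N1 and AH129-NC1 also differed from each other there (-1.54). Aqp8, a water channel, had 10.62, 10.60 and 10.74 in AH129-5, against 7.52, 6.75 and 7.20 in AH129-N1 and 8.33, 8.71 and 8.72 in AH129-NC1, a rise of 11.3-fold against AH129-N1 and 4.19-fold against AH129-NC1 (adjusted p = 3.09e-05). Scara5, a ferritin receptor, had 10.74, 10.76 and 10.77 in AH129-5, against 8.55, 8.43 and 8.18 in AH129-N1 and 8.59, 8.67 and 8.41 in AH129-NC1 (2.37 ± 0.12 against AH129-N1 and 2.20 ± 0.12 against AH129-NC1, adjusted p = 3.54e-11). Slc35d1, a nucleotide sugar transporter needed for chondroitin sulfate, had 10.32, 10.62 and 10.66 in AH129-5, against 7.79, 7.82 and 7.83 in AH129-N1 and 8.63, 8.49 and 8.75 in AH129-NC1 (2.72 ± 0.12 against AH129-N1 and 1.91 ± 0.12 against AH129-NC1, adjusted p = 1.74e-10). In all 4 genes AH129-5 was above every other ES line. Ceacam10, a member of the carcinoembryonic antigen family, averaged 8.90 ± 0.32 in AH129-5, 6.16 ± 0.13 in AH129-N1 and 6.86 ± 0.30 in AH129-NC1 (adjusted p = 3.04e-07).

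For several of the rises 1 or both of the other haploid lines were near background, and folds to such a line are lower bounds. Ripply3, a corepressor that acts on T-box factors, had 7.69, 8.29 and 8.67 in AH129-5, against 5.56, 3.43 and 4.03 in AH129-N1 and 5.20, 6.03 and 5.72 in AH129-NC1. It was at least 6.75-fold against AH129-N1 and 5.92-fold against AH129-NC1 higher (adjusted p = 0.000307), and CS1-1 was close to AH129-5 with 7.56 ± 0.25. D430019H16Rik likewise averaged 7.91 ± 0.03 in AH129-5, against 4.21 ± 0.26 in AH129-N1 and 4.66 ± 0.55 in AH129-NC1, with 8.10 ± 0.21 in CS1-1. In both genes the arrays of AH129-5 and CS1-1 overlapped. Gsx2, a homeobox gene of the forebrain, had 6.87, 6.87 and 7.14 in AH129-5, against 3.68, 3.998 and 3.60 in AH129-N1 and 5.01, 3.94 and 4.36 in AH129-NC1 (at least 2.83-fold against AH129-N1 and at least 2.83-fold against AH129-NC1, adjusted p = 0.000283). Sct, the hormone secretin, had 6.48, 6.81 and 7.18 in AH129-5, against 4.31, 5.85 and 4.71 in AH129-N1 and 4.79, 4.42 and 5.53 in AH129-NC1 (at least 2.57-fold against AH129-N1 and at least 2.58-fold against AH129-NC1, adjusted p = 0.00341). In 26 of the 131 rises both other haploid lines were near background.

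**Figure D3:**
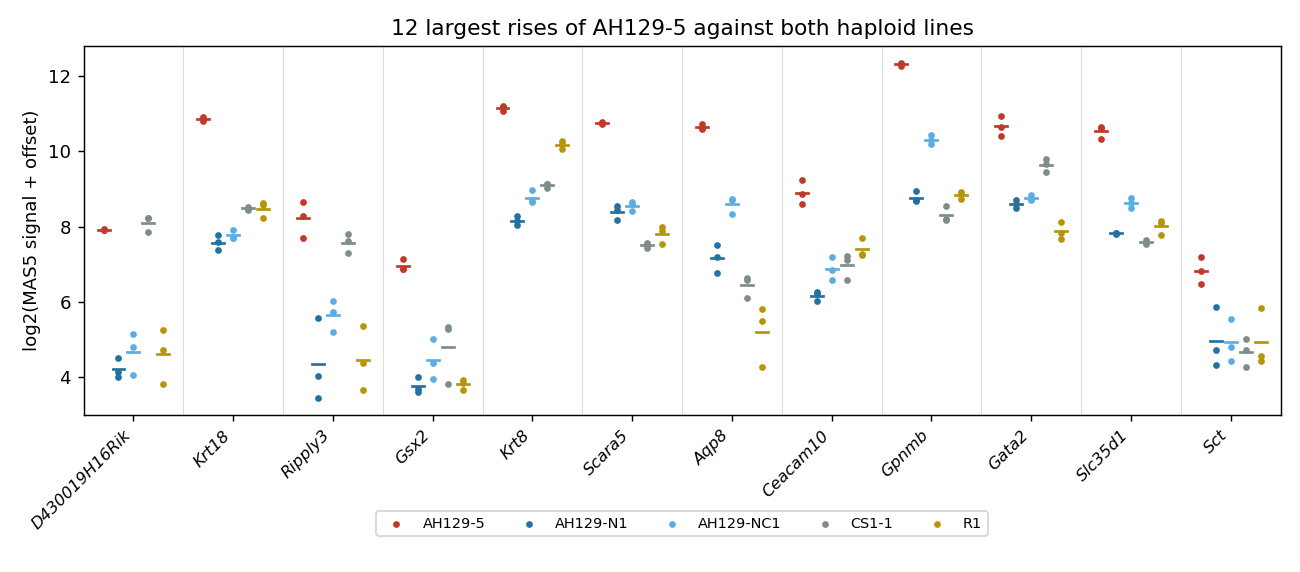
The log2 value of each array (points) and the mean of each line (bars) are plotted for the 12 largest rises of AH129-5 against both haploid lines. The AH129-5 arrays, in red, are the highest points except in D430019H16Rik, where CS1-1 reaches the same level, and in Ripply3, where they overlap those of CS1-1.

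The list of serine synthesis and stress responses, 36 genes tested, had 4 higher against both lines (11.1%, against 1.05% of all tested genes) and 0 lower (0.854% of all tested genes). Chac1, a glutathione-degrading enzyme induced by Atf4, had 10.62, 10.70 and 10.77 in AH129-5, against 9.38, 9.42 and 9.64 in AH129-N1 and 9.53, 9.31 and 9.53 in AH129-NC1 (1.22 ± 0.10 against AH129-N1 and 1.24 ± 0.10 against AH129-NC1, adjusted p = 1.23e-08). Herpud1, which serves the removal of misfolded proteins from the endoplasmic reticulum, had 10.58, 10.47 and 10.65 in AH129-5, against 9.25, 9.36 and 9.25 in AH129-N1 and 9.21, 9.33 and 8.88 in AH129-NC1 (1.28 ± 0.12 against AH129-N1 and 1.43 ± 0.12 against AH129-NC1, adjusted p = 6.83e-08). Vldlr, a lipoprotein receptor, averaged 9.99 ± 0.10 in AH129-5, 8.67 ± 0.15 in AH129-N1 and 8.67 ± 0.38 in AH129-NC1 (adjusted p = 1.64e-06), and Stc2, a secreted glycoprotein, 9.24 ± 0.12 in AH129-5, 8.21 ± 0.21 in AH129-N1 and 7.74 ± 0.11 in AH129-NC1 (adjusted p = 9.02e-06). Every one of the 4 was higher in AH129-5 than in the other 4 ES lines. Stc2 fell short of 2-fold in 5 alternatives, 3 of which left out 1 array (AH129-5 replicate 1, AH129-N1 replicate 1 or AH129-N1 replicate 2). Atf3, a stress-induced transcription factor counted with the immediate early genes, had 10.999, 10.81 and 10.54 in AH129-5, against 9.10, 9.14 and 9.19 in AH129-N1 and 9.72, 9.58 and 9.77 in AH129-NC1 (1.64 ± 0.11 against AH129-N1 and 1.10 ± 0.11 against AH129-NC1, adjusted p = 1.09e-07), and its difference from AH129-NC1 dropped to 0.99 without AH129-5 replicate 1. Chaperones of the endoplasmic reticulum on the same list differed the other way, under 2-fold. Hsp90b1 had differences of -0.48 ± 0.07 against AH129-N1 and -0.51 ± 0.07 against AH129-NC1 (adjusted p = 2.37e-05) and Pdia4 -0.47 ± 0.08 against AH129-N1 and -0.42 ± 0.08 against AH129-NC1 (adjusted p = 0.000217), while Hspa5 had -0.13 ± 0.07 against AH129-N1 and -0.11 ± 0.07 against AH129-NC1 (adjusted p = 0.257). Of the enzymes of serine synthesis, Phgdh, also picked with its values known, had differences of 0.15 against AH129-N1 and 1.21 against AH129-NC1, and it passed only against AH129-NC1.

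Of 27 tested pluripotency genes, 0 passed against both lines, where 1.05% of all tested genes were higher and 0.854% lower. A list of this size would hold few or no calls at those shares. Both differences were below 0 in 13 of the 27 and above 0 in 5 (3751 and 5055 of all 12418 tested genes). Without a minimum fold 2 were higher and 6 lower against both lines (1434 and 1200 of all tested genes). Sox2 averaged 12.94 ± 0.21 in AH129-5, 13.18 ± 0.04 in AH129-N1 and 13.38 ± 0.11 in AH129-NC1, and Klf4 13.21 ± 0.14 in AH129-5, 13.26 ± 0.06 in AH129-N1 and 13.48 ± 0.09 in AH129-NC1. Zfp42 (Rex1), a marker of the naive state, was 13.11 ± 0.05 in AH129-5, 13.56 ± 0.07 in AH129-N1 and 13.80 ± 0.02 in AH129-NC1. Prdm14, a repressor that guards that state, averaged 10.44 ± 0.07 in AH129-5, 11.18 ± 0.20 in AH129-N1 and 11.35 ± 0.11 in AH129-NC1 (adjusted p = 1.43e-06, short of 2-fold). The differences of Zfp42 and Prdm14 from each line lay beyond the spread of the arrays but under 2-fold. Lefty1, a Nodal antagonist, had 10.90 ± 0.14 in AH129-5, 10.19 ± 0.18 in AH129-N1 and 10.13 ± 0.14 in AH129-NC1, also under 2-fold. Of 15 Nodal and Lefty genes, 0 passed against both lines.

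Lists of epigenetic regulation held single calls or none. Of all tested genes, 1.05% were higher and 0.854% lower against both lines, and at those shares lists of this size would hold few or no calls. Dnmt3l, the catalytically inactive partner of the de novo DNA methyltransferases, was 1 of 24 genes of DNA methylation and imprint protection higher against both lines, with 10.78, 10.82 and 10.72 in AH129-5, against 9.12, 8.89 and 9.09 in AH129-N1 and 9.83, 9.63 and 9.65 in AH129-NC1 (1.74 ± 0.09 against AH129-N1 and 1.07 ± 0.09 against AH129-NC1, adjusted p = 9.56e-09). Its partners differed less, with Dnmt3a at 9.79 ± 0.16 in AH129-5, 9.60 ± 0.14 in AH129-N1 and 8.93 ± 0.05 in AH129-NC1 and Dnmt3b at 11.97 ± 0.15 in AH129-5, 11.91 ± 0.05 in AH129-N1 and 12.06 ± 0.11 in AH129-NC1. Sgce, epsilon-sarcoglycan, was 1 of 22 paternally expressed imprinted genes higher against both lines. It had 9.89, 9.77 and 9.82 in AH129-5, against 8.40, 8.32 and 8.13 in AH129-N1 and 7.55, 7.28 and 7.39 in AH129-NC1 (1.54 ± 0.11 against AH129-N1 and 2.43 ± 0.11 against AH129-NC1, adjusted p = 1.51e-09), a rise also against CS1-1 and R1 (8.33 ± 0.03 and 8.16 ± 0.13). Of 22 maternally expressed imprinted genes, 29 germline genes silenced by DNA methylation and 30 Polycomb genes, 0 passed against both lines. Slc11a1, matched through its synonym Lsh, is counted among the 24 genes of DNA methylation and imprint protection but does not belong to that group. It did not pass against either line. Igf2, a paternally expressed growth factor, averaged 9.26 ± 0.23 in AH129-5, 10.25 ± 0.13 in AH129-N1 and 9.44 ± 0.28 in AH129-NC1, a difference of -0.998 ± 0.13 from AH129-N1 (adjusted p = 3.66e-06).

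Lists of lineage and cell type markers had few calls against both lines, as did all tested genes (1.05% higher and 0.854% lower). Srgn, a proteoglycan of secretory granules, was 1 of 15 primitive endoderm genes higher against both lines, with 9.74, 9.47 and 9.76 in AH129-5, against 7.49, 7.58 and 7.61 in AH129-N1 and 8.004, 8.09 and 7.90 in AH129-NC1 (2.10 ± 0.11 against AH129-N1 and 1.66 ± 0.11 against AH129-NC1, adjusted p = 9.92e-10). Etv4, an ERK-driven factor, was 1 of 16 primed epiblast genes and with Btg2 1 of the 2 immediate early and ERK genes (of 37) lower against both lines. It averaged 5.95 ± 0.56 in AH129-5, 7.67 ± 0.29 in AH129-N1 and 7.39 ± 0.14 in AH129-NC1 (adjusted p = 0.000876). Pramel6, 1 of 8 genes of the two-cell-like state, averaged 9.26 ± 0.23 in AH129-5, 10.50 ± 0.10 in AH129-N1 and 10.94 ± 0.05 in AH129-NC1 and was lower (adjusted p = 6.47e-05). That fall rested on 1 probe set: it was -0.87 over the mean of the gene's probe sets, and -0.50 (adjusted p = 0.0738) without probe sets that can detect several transcripts. Lgr5, a Wnt target and 1 of 16 early mesoderm and Wnt genes, passed as higher (adjusted p = 0.0436) but did not in 13 of 22 alternatives. Twist2, 1 of 36 fibroblast genes, averaged 7.55 ± 0.07 in AH129-5, 5.82 ± 0.56 in AH129-N1 and 6.37 ± 0.33 in AH129-NC1 and was higher (adjusted p = 0.00818), though not with an offset of 50, with no offset or without AH129-NC1 replicate 2. Another 5 fibroblast genes were higher against AH129-N1 only. In that comparison 6 of 36 were thus higher (3.84% of all tested genes), and 1 of 36 in that with AH129-NC1 (3.21%). The fibroblast list had median differences of 0.39 against AH129-N1 and 0.11 against AH129-NC1 (0.03 and 0.06 over all tested genes). Without a minimum fold 11 were higher and 2 lower against both lines (1434 and 1200 of all 12418 tested genes). Summed fibroblast signals are given above, and the part of fibroblast RNA in these differences was not tested.

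Among markers of blood and endothelium, 12 tested, Gata2 was higher and Tek lower. Tek, the angiopoietin receptor, averaged 7.06 ± 0.20 in AH129-5, 8.40 ± 0.16 in AH129-N1 and 8.47 ± 0.10 in AH129-NC1 (adjusted p = 2.19e-06). The summed signal of the 21 genes was 4492 to 5503 units in AH129-5, 2784 to 2902 in AH129-N1 and 3641 to 4023 in AH129-NC1. The general blood marker Ptprc did not pass the filter on low values. Cd3d, a T cell receptor subunit, had 10.84 ± 0.19 in AH129-5, 9.82 ± 0.02 in AH129-N1 and 10.89 ± 0.15 in AH129-NC1, with differences that did not pass (1.02 ± 0.45 against AH129-N1 and -0.05 ± 0.45 against AH129-NC1). That SE draws on all 15 ES arrays and is larger than the SD within each haploid line. CS1-1 and R1 were near background in Cd3d, with means of 4.62 and 5.21. The missing pass therefore does not show that AH129-5 and AH129-N1 are alike in Cd3d. Neurod1, 1 of 8 neural genes, was lower against both lines (adjusted p = 0.00857), with means of 4.12 ± 0.89 in AH129-5, 5.50 ± 0.02 in AH129-N1 and 6.17 ± 0.14 in AH129-NC1. The AH129-5 mean is near background and the AH129-N1 mean barely above it (5.46 in AH129-N1), so that the size of the fall against AH129-N1 is uncertain. The call was lost with an offset of 50 (difference -0.53). Of 5 tested male germ cell markers, 38 genes of oxidative phosphorylation, 34 of glycolysis and hypoxia and 30 of sterol and fatty acid synthesis, 0 passed against both lines. At the shares of all tested genes (1.05% higher and 0.854% lower), lists of this size would hold few or no calls.

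**Figure D4:**
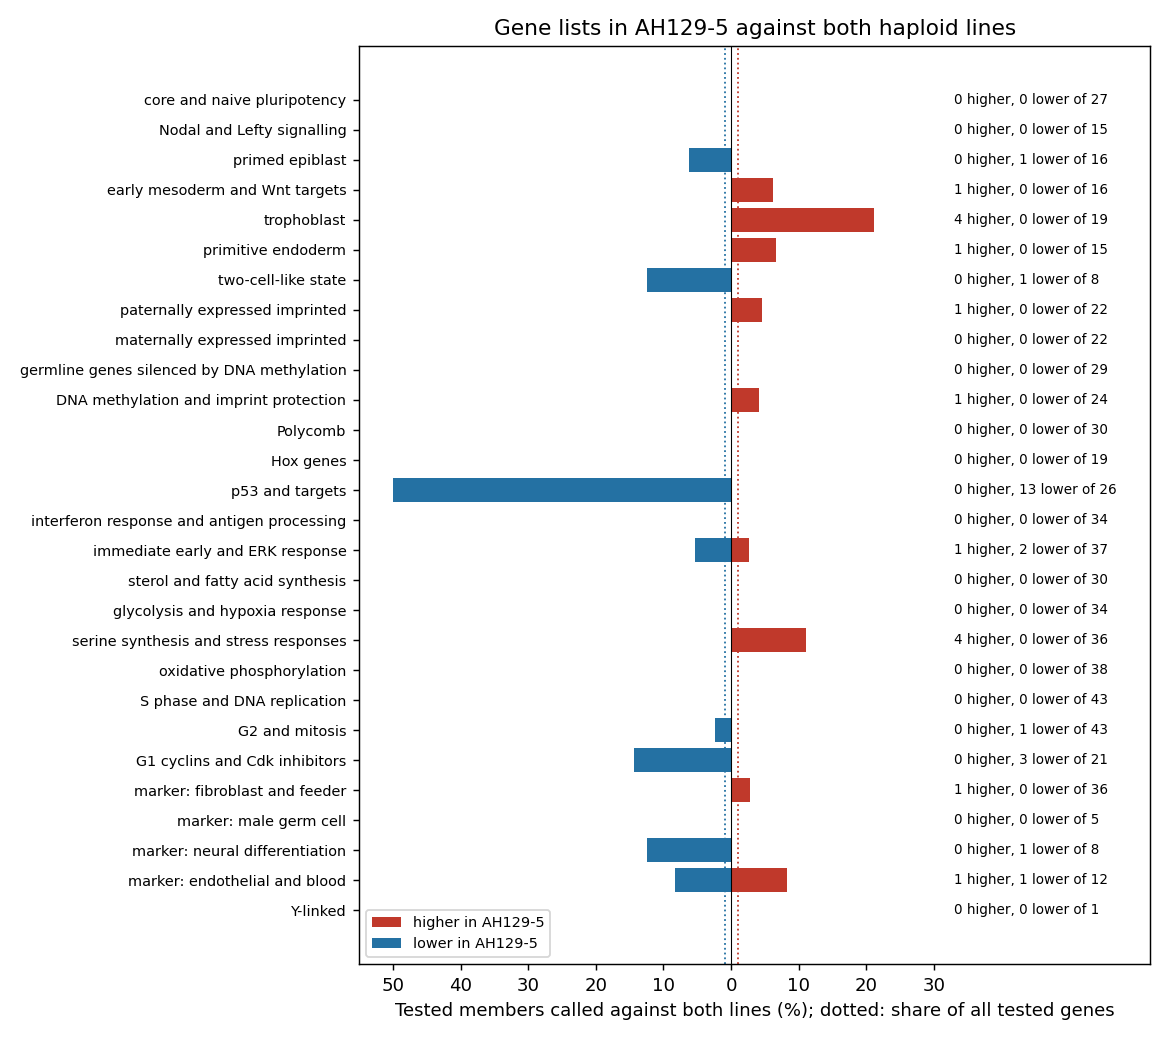
For each gene list, bars show the share of its tested members that passed against both lines, higher in AH129-5 to the right in red and lower to the left in blue, in percent of the members tested. The longest bar is that of p53 and its targets, 13 of 26 lower, followed by trophoblast, 4 of 19 higher, and dotted lines mark the shares over all tested genes (1.05% and 0.854%).

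A second class of genes did not move the same way against each line. In all, 844 genes (6.8%) passed against 1 line but not in the same direction against both. For 219 of these (1.76%) AH129-N1 and AH129-NC1 themselves differed by the same test, while for the other 625 that difference did not pass, so they are not shown to be specific to 1 line. Of the 219, 100 were higher and 13 lower in AH129-5 against AH129-N1 only, 55 were higher and 49 lower against AH129-NC1 only, and 2 passed in opposite directions.

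Several interferon-responsive genes were higher in AH129-5 than in AH129-N1. Of 34 tested, 0 passed against both lines (1.05% of all tested genes were higher and 0.854% lower). Against AH129-N1 only, 10 were higher (against 3.84% of all tested genes) and 1 (Isg20) lower (1.45% of all tested genes). Against AH129-NC1 only, 1 (Mx1) was higher, and 9 of the 34 were among the 219 (1.76% of all tested genes). With a filter at the 60th percentile 6 of 21 tested were higher against AH129-N1 and 5 were among genes for which the lines differ, and with an offset of 50 these were 7 and 4 of 34. The median was 0.69 against AH129-N1 and -0.12 against AH129-NC1. Of the members described here, all but Irgm1 were chosen after their values were seen. Usp18, which switches off the interferon receptor, had 8.95, 8.87 and 8.76 in AH129-5, against 6.04, 5.93 and 5.78 in AH129-N1 and 8.19, 8.39 and 8.46 in AH129-NC1. It was 7.71-fold higher against AH129-N1 (adjusted p = 3.7e-12), with a difference of 0.52 ± 0.14 from AH129-NC1. Irgm1, an immunity-related GTPase, had 9.29, 9.51 and 9.56 in AH129-5, against 7.02, 7.03 and 6.60 in AH129-N1 and 9.91, 9.69 and 9.98 in AH129-NC1 (2.57 ± 0.11 against AH129-N1, adjusted p = 1.33e-12). AH129-N1 was the low line in both genes, below CS1-1 and R1 as well. Ifit2 averaged 7.03 ± 0.34 in AH129-5, 4.84 ± 0.75 in AH129-N1 and 6.74 ± 0.18 in AH129-NC1, Irf7, the interferon-inducing factor, 7.10 ± 0.16 in AH129-5, 5.19 ± 0.99 in AH129-N1 and 6.92 ± 0.33 in AH129-NC1, and Gbp3, a guanylate-binding protein, 6.40 ± 0.63 in AH129-5, 4.77 ± 0.69 in AH129-N1 and 6.96 ± 0.41 in AH129-NC1. AH129-N1 lay near background in these 3.

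P2rx7, an ATP-gated ion channel, and Enox1, a cell-surface oxidase, passed in opposite directions. P2rx7 had 9.28, 9.33 and 9.15 in AH129-5, against 7.65, 8.14 and 7.63 in AH129-N1 and 10.43, 10.44 and 10.21 in AH129-NC1, which puts AH129-5 between the others without overlap (1.45 ± 0.18 against AH129-N1 and -1.10 ± 0.18 against AH129-NC1). Enox1 had 6.55, 7.20 and 7.43 in AH129-5, against 5.75, 5.98 and 6.06 in AH129-N1 and 8.18, 8.06 and 8.03 in AH129-NC1 (1.13 ± 0.37 against AH129-N1 and -1.03 ± 0.37 against AH129-NC1). Dppa3 (Stella), a germline and naive pluripotency gene, had 12.67, 12.52 and 12.35 in AH129-5, against 13.20, 13.05 and 13.24 in AH129-N1 and 10.71, 10.91 and 10.71 in AH129-NC1. AH129-5 was 3.33-fold above AH129-NC1 (adjusted p = 3.69e-13) and below AH129-N1 by less than 2-fold (-0.65 ± 0.07, adjusted p = 7.32e-07). Egln3, an oxygen-sensing hydroxylase, averaged 8.41 ± 0.20 in AH129-5, 9.24 ± 0.25 in AH129-N1 and 7.15 ± 0.23 in AH129-NC1, and Tspan2, a tetraspanin, 8.47 ± 0.08 in AH129-5, 9.06 ± 0.20 in AH129-N1 and 6.69 ± 0.25 in AH129-NC1, with AH129-5 again in the middle. Plekhh3 averaged 7.23 ± 0.42 in AH129-5, 6.45 ± 0.62 in AH129-N1 and 4.50 ± 0.14 in AH129-NC1, and without AH129-N1 replicate 1 it no longer counted among genes that did not move the same way. Mmp3, a matrix protease, was high in AH129-NC1 alone among the haploid lines, with 6.85, 6.93 and 7.34 in AH129-5, against 7.04, 7.17 and 6.65 in AH129-N1 and 9.48, 9.24 and 9.44 in AH129-NC1, and the same held for Perp, described with the p53 targets.

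Of 19 tested Hox genes, 0 passed against both lines (1.05% of all tested genes were higher and 0.854% lower). Against AH129-NC1 only, 3 were higher (3.21% of all tested genes were higher in that comparison). Hoxa9 had 10.76, 10.71 and 10.87 in AH129-5, against 9.92, 9.83 and 9.67 in AH129-N1 and 8.36, 8.31 and 8.38 in AH129-NC1, with no overlap between any of the lines. The difference of 2.43 ± 0.13 from AH129-NC1 passed (adjusted p = 2.44e-11), and that of 0.97 ± 0.13 from AH129-N1 was just under 2-fold. Without AH129-5 replicate 2 or AH129-N1 replicate 1 Hoxa9 no longer counted among genes that did not move the same way. Hoxa10 averaged 9.31 ± 0.29 in AH129-5, 8.79 ± 0.16 in AH129-N1 and 7.86 ± 0.14 in AH129-NC1, and Hoxa11 7.47 ± 0.01 in AH129-5, 6.66 ± 0.16 in AH129-N1 and 6.42 ± 0.03 in AH129-NC1, in the same order of lines. CS1-1 and R1 were lower than all 3 haploid lines in Hoxa9, at 5.18 ± 0.21 and 5.96 ± 0.18. Epas1, the hypoxia factor Hif2a, was in turn lowest in AH129-5, with 7.55 ± 0.21 in AH129-5, 8.53 ± 0.06 in AH129-N1 and 9.48 ± 0.07 in AH129-NC1, and just under 2-fold lower against AH129-N1 (-0.98 ± 0.09). The diploid lines had 11.30 ± 0.03 (CS1-1) and 11.05 ± 0.05 (R1).

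**Figure D5:**
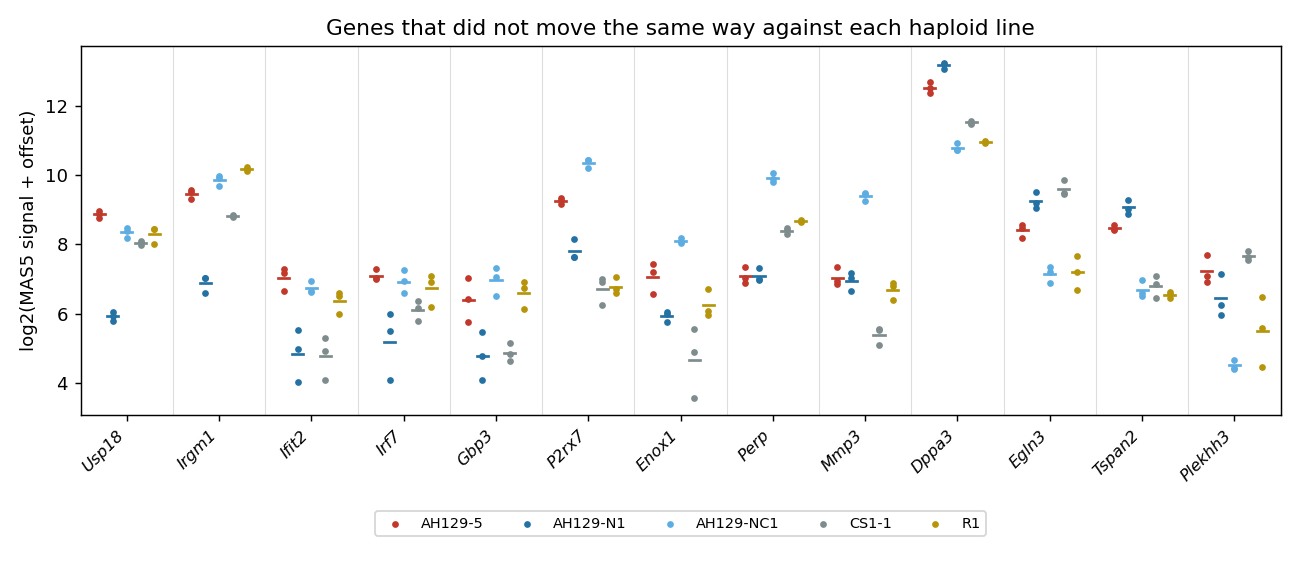
The log2 value of each array (points) and the mean of each line (bars) are plotted for 13 genes that did not move the same way against each haploid line, with CS1-1 and R1 beside them. AH129-N1 is the low line in Usp18 and Irgm1, AH129-NC1 is the high line in Perp and Mmp3, and AH129-5 lies between the other haploid lines in P2rx7, Enox1 and Dppa3.

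Agreement between probe sets of a gene bears on the precision of these values. The rises included 37 genes with 60 other probe sets above the filter, and 57 of those moved the same way against both lines, 24 by at least 2-fold, while 1 moved the opposite way. The falls included 44 genes with 60 other probe sets, of which 58 moved the same way, 35 by at least 2-fold and 0 the opposite way. The 2-fold threshold divides a continuum: Gpat3 (smaller difference 1.006) and Igll1 (-1.002) were just inside it, and Dennd2a (0.999) and Npr3 (-0.997) just outside. The called genes lay on all 19 autosomes and the X chromosome, though unevenly. Chromosome 17 held 1 rise and 9 falls among 599 tested genes, chromosome 5 held 11 rises and 2 falls among 801, and chromosome 18 held 0 rises and 1 fall among 310. No test was run by chromosome. The median difference per chromosome ran from -0.02 to 0.07 against AH129-N1 and from 0.01 to 0.09 against AH129-NC1 over the 19 autosomes and the X chromosome. No chromosome held more than 16 of the 131 rises or 11 of the 106 falls.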

How the data were processed

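RNA of 21 samples was hybridised to Affymetrix GeneChip arrays of the mouse genome, 3 per group. The deposited values are log2 signals for 45101 probe sets, made by the authors with MAS5 per the submitters' processing notes, version not given in the sources used here. The log base was taken from the values, and no detection calls or scan dates were used here.

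Of the probe sets, 64 were controls, 34945 had 1 gene symbol, 932 several and 9160 none, by the platform annotation. The brightest of each gene's probe sets over all arrays stood for it (18193 genes). Signals were raised by 9.70 units (the 20th percentile, median over arrays), which shrinks changes of dim genes. Tests covered genes above the 40th percentile of the array on the 3 arrays of any haploid line. R 4.3.3 and limma 3.58.1 (trend, robust moderation, statmod 1.5.0) fitted a mean per line over the 15 ES arrays, so that the diploid lines share in the estimate of spread. Tests were 2-sided. The number of arrays, 3 per line, limits the precision.

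Named were the 12 largest rises and falls without overlap, up to 4 members of each of 28 gene lists by p and any called set of 5 or fewer, the 4 largest differences each way and the opposite calls among genes that did not move alike, and 14 key genes. Members and lists were chosen with earlier results of these data known. The alternatives were 13 other settings and 9 fits that each left out 1 array.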

Additional observations from a re-analysis of the deposited data

Results flagged for a closer look

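Enox1 and P2rx7 passed in AH129-5 in opposite directions against the other 2 haploid lines, and the difference between those lines was itself tested. P2rx7 was higher by 1.45 ± 0.18 against AH129-N1 (limma adjusted p = 2.64e-06) and lower against AH129-NC1 (difference -1.10 ± 0.18, adjusted p = 7.4e-05), and AH129-N1 minus AH129-NC1 was -2.56 (adjusted p = 3.59e-09). The opposite calls of P2rx7 were lost when its probe sets were averaged. Enox1 was higher by 1.13 ± 0.37 against AH129-N1 (adjusted p = 0.0194) and lower against AH129-NC1 (difference -1.03 ± 0.37, adjusted p = 0.0341), with AH129-N1 minus AH129-NC1 at -2.16 (adjusted p = 0.000153). For Enox1 the opposite calls were lost without AH129-5 replicate 2, with no offset and with an offset of 50.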

How the results depend on the processing

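Over 22 alternatives, 0 of the calls of the 144 named genes changed direction. Of 3151 values, 3022 kept their side of the threshold, 51 lost a call and 78 gained one, and of 46 named genes that passed against both lines 36 did so under every alternative that tested them. A filter at the 60th percentile gave 285 genes higher against AH129-N1, 239 higher against AH129-NC1, 196 higher against the mean of both lines (338 by the main setting) and 129 for which AH129-N1 and AH129-NC1 differ (219). An offset of 50, which shrinks dim genes, gave 211 higher and 102 lower against AH129-N1, 149 and 160 against AH129-NC1, 132 and 105 against the mean of both, 65 higher against both lines and 72 for which the lines differ. Without a minimum fold the counts were 2654 and 2520, 2798 and 1983, 2908 and 2317, 1434 and 1200 against both lines, and 2913. Leaving out 1 array at a time gave 460 to 502 higher and 176 to 206 lower against AH129-N1, 364 to 413 and 248 to 270 against AH129-NC1, 121 to 147 and 102 to 119 against both lines, 196 to 242 for which the lines differ, and 316 to 361 and 174 to 191 against the mean. Deviations of same-numbered arrays of different lines had correlations of -0.02 to 0.04 (mean 0.014). For arrays with different numbers these were -0.07 to 0.05 (mean -0.007). Whether the replicate numbers pair samples was not tested. With the replicate number as a replicate block, 132 genes were higher and 105 lower against both lines (127 and 104 of them shared), 480 and 181 against AH129-N1, 396 and 263 against AH129-NC1, and 221 for which the lines differ. Median-centred arrays gave 109 higher and 122 lower. The causes of these shifts were not tested. Genes near background carry bounds only.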

Other observations

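Some genes outside the lists were picked after their values were seen, so that their values are a description. They stand for no gene group, since no list of such genes was counted or tested. Cldn4, a tight junction claudin, had 11.78, 11.79 and 11.70 in AH129-5, against 10.28, 10.25 and 10.30 in AH129-N1 and 10.21, 10.24 and 10.42 in AH129-NC1 (1.48 ± 0.06 against AH129-N1 and 1.46 ± 0.06 against AH129-NC1, limma adjusted p = 1.26e-12), with CS1-1 at 11.46 ± 0.04. Marveld2 (tricellulin) averaged 6.60 ± 0.16 in AH129-5, 5.13 ± 0.55 in AH129-N1 and 5.37 ± 0.52 in AH129-NC1, and Prss8, a membrane protease of epithelia, 7.27 ± 0.47 in AH129-5, 4.50 ± 1.02 in AH129-N1 and 5.79 ± 0.37 in AH129-NC1. AH129-N1 was near background (5.46) in both genes, and AH129-NC1 was so in Marveld2, so that the size of these differences is uncertain. Id2, an inhibitor of bHLH factors, averaged 10.55 ± 0.16 in AH129-5, 9.28 ± 0.13 in AH129-N1 and 9.001 ± 0.08 in AH129-NC1 (adjusted p = 1.17e-09).

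Adh1, an alcohol dehydrogenase that oxidises retinol, had 11.17, 11.22 and 11.10 in AH129-5, against 7.98, 8.29 and 7.81 in AH129-N1 and 9.80, 9.81 and 9.41 in AH129-NC1 (3.14 ± 0.15 against AH129-N1 and 1.49 ± 0.15 against AH129-NC1, adjusted p = 1.28e-07). Cyp26a1, which degrades retinoic acid, averaged 7.23 ± 0.17 in AH129-5, 4.88 ± 1.20 in AH129-N1 and 5.61 ± 0.26 in AH129-NC1 (adjusted p = 0.0127), and Dhrs3, which reduces retinal, 7.64 ± 0.36 in AH129-5, 6.55 ± 0.36 in AH129-N1 and 6.58 ± 0.14 in AH129-NC1 (adjusted p = 0.00192). For Cyp26a1 the AH129-N1 mean was near background (5.46). The pigment cell genes Pmel (1.15 ± 0.12 against AH129-N1 and 1.09 ± 0.12 against AH129-NC1) and Dct were higher against both lines, and Mlana, another, was lower (-1.48 ± 0.19 against AH129-N1 and -2.68 ± 0.19 against AH129-NC1).

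Single falls picked in the same way add nothing to the count of the p53 list. Mdm4, an inhibitor of p53, had 9.09, 9.05 and 9.58 in AH129-5, against 11.12, 11.17 and 11.05 in AH129-N1 and 11.45, 11.25 and 11.43 in AH129-NC1 (-1.87 ± 0.10 against AH129-N1 and -2.14 ± 0.10 against AH129-NC1, adjusted p = 1.19e-10). Tert, the catalytic subunit of telomerase, had 6.03, 6.41 and 6.65 in AH129-5, against 8.80, 8.87 and 8.95 in AH129-N1 and 8.99, 8.87 and 8.11 in AH129-NC1 (-2.51 ± 0.20 against AH129-N1 and -2.29 ± 0.20 against AH129-NC1, adjusted p = 7.52e-08). Apaf1, the scaffold of the apoptosome, averaged 9.10 ± 0.15 in AH129-5, 10.22 ± 0.07 in AH129-N1 and 10.42 ± 0.04 in AH129-NC1 (adjusted p = 5.78e-10). Lif, the cytokine also supplied in the medium, averaged 6.19 ± 0.07 in AH129-5, 7.59 ± 0.09 in AH129-N1 and 7.75 ± 0.10 in AH129-NC1 (adjusted p = 3.76e-07).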
